A study of Mus musculus with 14 samples.

Results

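The genes described here are 10 genes of MHC class I antigen presentation, measured in mouse kidney after intravenous injection of the proteins Dps and MnDps. They were taken by gene symbol from the deposited count table: the heavy chains H2-K1 and H2-D1, the light chain B2m, the peptide loading genes Tap1, Tap2 and Tapbp, the immunoproteasome genes Psmb8, Psmb9 and Psmb10, and the transactivator Nlrc5. All 10 were among the 24421 genes of the table, and all 10 passed the filter on low counts, which kept 14854 genes. Male C57BL/6J mice were given MnDps or Dps at 18 mg/kg, and their kidneys were taken at 24 h or 4 h. Messenger RNA was sequenced from 2 kidney libraries at 24 h after MnDps, 3 at 24 h after Dps, 3 at 4 h after MnDps, 3 at 4 h after Dps and 3 after vehicle. The labels do not spell out the short names of the proteins and name no time for the vehicle libraries. They also do not say that libraries of a group came from separate animals, and a p-value here reflects only how far these libraries spread, which may be technical. All 4 treated groups were set against the same 3 vehicle libraries.

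MHC class I molecules show peptides made inside the cell to CD8 T cells. The proteasome cuts proteins into peptides, the TAP transporter moves the peptides into the endoplasmic reticulum, tapasin holds the transporter and an empty class I molecule together, and the loaded heavy chain travels to the cell surface with beta-2-microglobulin. Interferons induce this machinery, and under them the catalytic subunits of the constitutive proteasome are replaced by those of the immunoproteasome. NLRC5 is the transactivator of class I genes, as CIITA is of class II genes.

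At 4 h all 10 genes rose after both proteins, and at 24 h the rises were smaller, with a different order of genes. Against vehicle, 10 of 10 genes rose at 4 h after MnDps and none fell, while 22.9% of the 14854 genes tested rose and 22.7% fell. The median log2 fold change of the 10 genes was 2.86 there, against 0.005 over all genes tested. At 4 h after Dps 10 of 10 rose and none fell, against 8.33% and 6.27% of all genes, with a median of 2.65 for the 10 and -0.02 over all genes. At 24 h after MnDps 9 of 10 rose, all but Nlrc5, and none fell, against 4.93% and 8.39% of all genes, with a median of 1.03 for the 10 and 0.02 over all genes. At 24 h after Dps 4 of 10 rose, H2-D1, Tapbp, Psmb8 and Psmb10, and none fell, against 9.64% and 10.4% of all genes, with a median of 0.71 for the 10 and 0.003 over all genes. Leaving out 1 library changed the counts at 24 h. After MnDps 2 genes were called without MnDps 24 h replicate 1, 3 without MnDps 24 h replicate 2 or vehicle replicate 3, and 5 without MnDps 4 h replicate 1, Dps 4 h replicate 1, Dps 4 h replicate 3, Dps 24 h replicate 3 or vehicle replicate 1. After Dps 2 were called without Dps 24 h replicate 2 or vehicle replicate 3. A gene was called risen or fallen at an adjusted p under 0.05 in the quasi-likelihood test of edgeR, adjusted over all genes tested by the method of Benjamini and Hochberg.

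**Figure D1:**
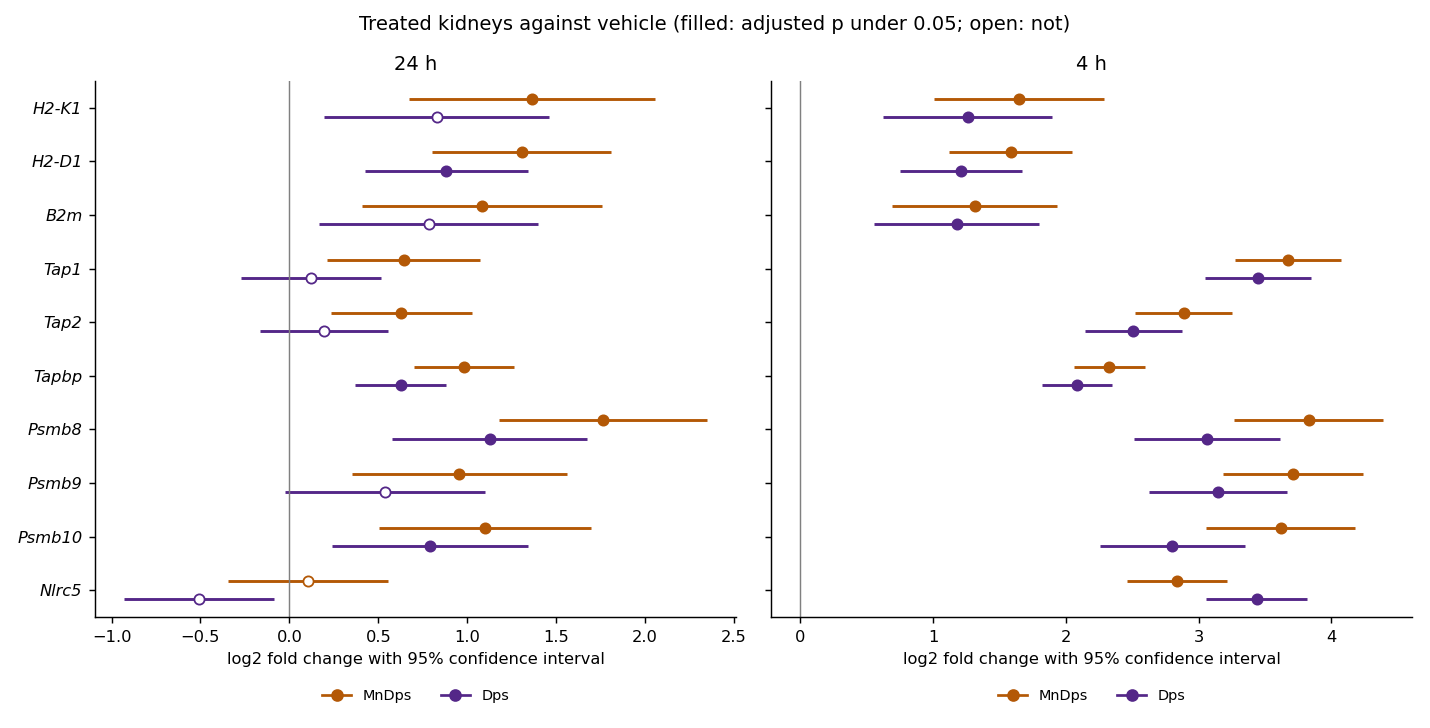
Log2 fold change against vehicle (horizontal axis, with 95% confidence intervals) of the 10 genes at 24 h and at 4 h, with MnDps above Dps for each gene and filled points where the adjusted p was under 0.05. At 4 h every point lies between 1.18 and 3.83, and at 24 h between -0.51 and 1.76.

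Levels are in CPM, the counts of a gene scaled to a common library total. Every library of the treated group lay above every vehicle library for 10 of 10 genes at 4 h after MnDps, as for 26.3% of all genes tested, and for 10 of 10 at 4 h after Dps, as for 16% of all genes. The same held for 9 of 10 at 24 h after MnDps, against 22.7% of all genes, and for 6 of 10 at 24 h after Dps, against 18.6%. Libraries that stood apart touch some of these values. Vehicle replicate 1 had the highest levels of H2-K1, H2-D1 and B2m among the vehicle libraries. Vehicle replicate 3, the deepest of the 3, had the lowest level of its group in all 10 genes. MnDps 4 h replicate 3 had the highest level of its group in 9 of the 10 genes, all but Nlrc5, and lay at 40.3 on the second principal component of all genes, against 10 and 14 for the other libraries of its group. The other treated groups also had a library that was high in most genes. Dps 4 h replicate 2 and MnDps 24 h replicate 1 were highest of their groups in all 10 genes. Dps 24 h replicate 2 was highest of its group in all but Nlrc5. In kidney RNA, fewer cells of a type and less RNA per cell cannot be told apart.

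**Figure D2:**
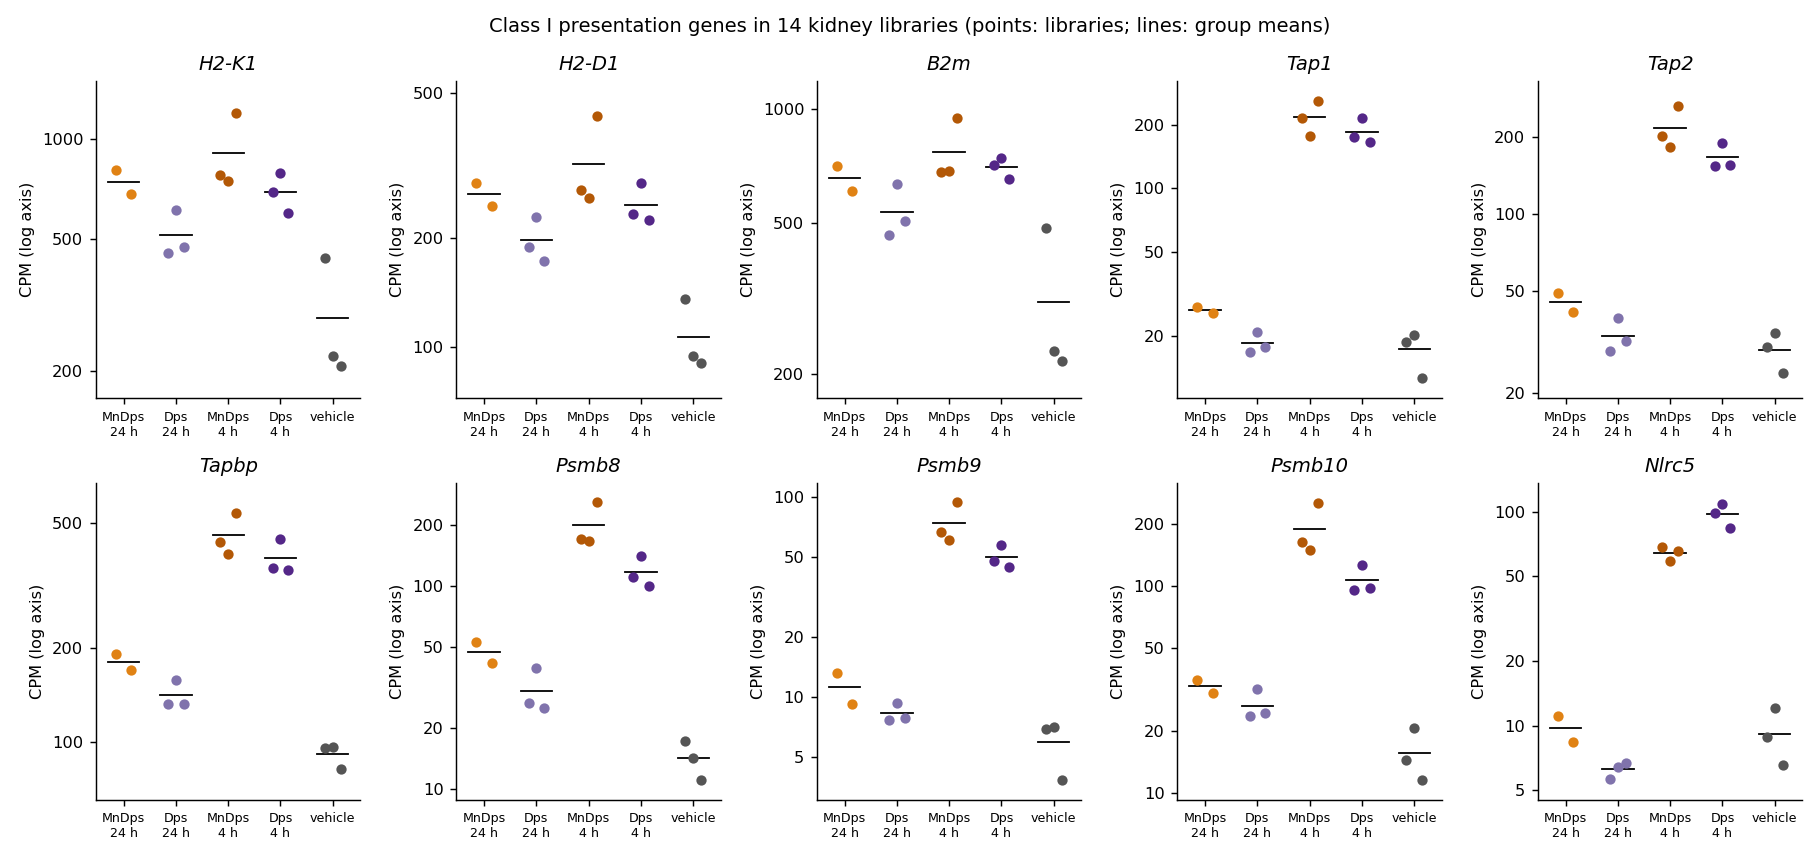
CPM on log axes (vertical) of the 10 genes in 14 libraries, grouped by treatment and time (horizontal); points are libraries and lines are group means. The 6 libraries at 4 h lie above the other 8 for Tap1, Tap2, Tapbp, Psmb8, Psmb9, Psmb10 and Nlrc5, whereas for H2-K1, H2-D1 and B2m the 24 h and 4 h libraries overlap when the proteins are pooled.

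The sequence before the RefSeq transcript start is shown for the genes whose windows carried a motif known from class I promoters, with the motif matches in capitals. RefSeq (GRCm38.p6) gave a window of 250 bases before to 50 bases after the start for 8 of the 10 genes, with none for Tap2 and Nlrc5. GENCODE places some starts further upstream. By its positions, the stretches printed for H2-D1, Psmb8 and Psmb9 to Tap1 lie inside H2-D1, Psmb8 and Psmb9. Part of the H2-K1 stretch likewise lies inside H2-K1. The motifs searched on both strands were the interferon-stimulated response element (ISRE, GAAANNGAAA), the STAT site called GAS (TTCNNNGAA), a kappa B site (GGGANTTTCC) and TGACG, the core of the X2 box to which class I promoters bind CREB factors. Of 27025 genes with a window, 3.99% held the ISRE, 9.55% the GAS site, 0.466% the kappa B site and 23% TGACG. Among the 8 genes, 1 held the ISRE (B2m), 1 the GAS site (Psmb8), 1 the kappa B site (B2m) and 5 TGACG (H2-K1, H2-D1, B2m, Tap1 and Psmb9). A match describes letters and is not evidence of a bound factor. Only these spellings were searched, so a gene without a match may still hold such a site in another spelling. This applies to H2-K1 and H2-D1 for the ISRE and the kappa B site. The 250 bases before the B2m start hold the ISRE, the kappa B site on the reverse strand and TGACG, in that order. The stretch between Psmb9 and Tap1 has TGACG once, and this single site counts for both genes. H2-K1 has 2 RefSeq starts, and its TGACG ends 51 bases before the one used here and 37 before the other. In H2-D1 TGACG ends 97 bases before the RefSeq start. These distances depend on which start is annotated.
B2m, chr2:122147437-122147686, plus strand: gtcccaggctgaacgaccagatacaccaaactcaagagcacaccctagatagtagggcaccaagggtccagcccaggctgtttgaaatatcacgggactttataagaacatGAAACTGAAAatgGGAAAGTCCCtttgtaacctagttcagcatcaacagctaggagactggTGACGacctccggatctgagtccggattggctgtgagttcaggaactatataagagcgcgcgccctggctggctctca
Psmb9 to Tap1, chr17:34187331-34187555, plus strand: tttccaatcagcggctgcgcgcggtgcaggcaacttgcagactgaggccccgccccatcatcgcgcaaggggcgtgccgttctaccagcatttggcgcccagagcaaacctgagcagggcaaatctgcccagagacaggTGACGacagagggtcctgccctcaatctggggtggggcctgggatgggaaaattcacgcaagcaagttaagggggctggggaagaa
H2-K1, chr17:34000334-34000453, minus strand: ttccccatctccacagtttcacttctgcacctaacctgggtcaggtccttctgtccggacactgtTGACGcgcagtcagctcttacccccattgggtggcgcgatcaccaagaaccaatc
H2-D1, chr17:35262974-35263093, plus strand: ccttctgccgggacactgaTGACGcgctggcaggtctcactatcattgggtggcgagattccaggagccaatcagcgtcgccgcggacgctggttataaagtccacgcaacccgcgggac
Psmb8, chr17:34198075-34198194, plus strand: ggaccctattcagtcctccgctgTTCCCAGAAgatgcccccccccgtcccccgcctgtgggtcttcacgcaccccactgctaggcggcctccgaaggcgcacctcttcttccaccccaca

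The heavy chains and the light chain had the 3 highest mean levels of the 10 genes after vehicle, and their fitted levels at 24 h were 0.741 to 0.853 of those at 4 h, differences that were not called. H2-K1, a classical heavy chain that presents peptides to CD8 T cells, had 804 and 681 CPM at 24 h after MnDps, 453, 611 and 474 CPM at 24 h after Dps, 775, 745 and 1191 CPM at 4 h after MnDps, 689, 789 and 598 CPM at 4 h after Dps, against 436, 223 and 208 CPM after vehicle. All 11 treated libraries lay above the vehicle libraries, and the ranges at 24 h and 4 h overlapped for each protein. Its log2 fold changes against vehicle were 1.36 ± 0.31 (SE) at 24 h after MnDps, 0.83 ± 0.29 at 24 h after Dps, 1.65 ± 0.29 at 4 h after MnDps and 1.26 ± 0.29 at 4 h after Dps, with adjusted p-values of 0.020, 0.064, 0.0011 and 0.015 by edgeR's quasi-likelihood test in the same order. The rise at 24 h after MnDps did not pass without MnDps 24 h replicate 1 (1.23), MnDps 24 h replicate 2 (1.48) or vehicle replicate 3 (1.17). Without vehicle replicate 1 the value at 24 h after Dps was 1.24 and passed (adjusted p = 0.0058 in edgeR). The rise at 4 h after Dps did not pass in edgeR without Dps 4 h replicate 2 (1.17, adjusted p = 0.053) or without vehicle replicate 2 (1.09, adjusted p = 0.062), nor in a fit of only the groups compared (1.27, adjusted p = 0.078).

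H2-D1, the other classical heavy chain of this strain, had 283 and 245 CPM at 24 h after MnDps, 189, 228 and 173 CPM at 24 h after Dps, 270, 258 and 432 CPM at 4 h after MnDps, 232, 283 and 224 CPM at 4 h after Dps, against 136, 94.4 and 90.5 CPM after vehicle. As for H2-K1, no treated library reached down to the vehicle range. The gene rose in all 4 treated groups, by 1.31 ± 0.23, 0.88 ± 0.21, 1.58 ± 0.21 and 1.21 ± 0.21 on the log2 scale in the same order of groups, with adjusted p-values of 0.0053, 0.014, 0.00014 and 0.0021 in edgeR. At 24 h the call was lost after Dps without Dps 24 h replicate 2 (0.75, adjusted p = 0.064) or vehicle replicate 3 (0.77, adjusted p = 0.075), and after MnDps without MnDps 24 h replicate 1 (1.19, adjusted p = 0.060), in edgeR. Read sharing between the heavy chains was limited: of the windows of 75 bases in the longest transcript, 1.33% in H2-K1 and 7.10% in H2-D1 also occurred in the transcripts of other genes, and how such reads were counted is not given in the sources used here.

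B2m encodes beta-2-microglobulin, the invariant light chain that every classical class I molecule needs at the surface. It had 709 and 610 CPM at 24 h after MnDps, 466, 633 and 508 CPM at 24 h after Dps, 682, 688 and 949 CPM at 4 h after MnDps, 712, 742 and 653 CPM at 4 h after Dps, against 487, 230 and 217 CPM after vehicle. Vehicle replicate 1 reached into the range of the Dps 24 h libraries, and the other treated groups did not overlap vehicle. Log2 fold changes were 1.08 ± 0.31, 0.78 ± 0.28, 1.31 ± 0.28 and 1.18 ± 0.28 in the same order of groups, with adjusted p-values of 0.042, 0.070, 0.0034 and 0.018 in edgeR. Without vehicle replicate 1 they were 1.55, 1.25, 1.78 and 1.65, and all 4 passed. The rise at 24 h after MnDps was called in 2 of the 14 fits that each left out 1 library, with values of 0.88 to 1.55 over the 14. The rise at 4 h after Dps did not pass without Dps 4 h replicate 1 (1.18), Dps 4 h replicate 2 (1.14) or vehicle replicate 2 (0.98), nor in a fit of only the groups compared (1.19, adjusted p = 0.11 in edgeR).

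Tap1, Tap2 and Tapbp encode the peptide loading step and showed a large rise at 4 h with little or none left at 24 h for the transporter. Tap1, which pairs with Tap2 to form the transporter, had 27.4 and 25.6 CPM at 24 h after MnDps, 16.7, 20.8 and 17.7 CPM at 24 h after Dps, 214, 177 and 257 CPM at 4 h after MnDps, 174, 215 and 165 CPM at 4 h after Dps, against 18.7, 20.2 and 12.6 CPM after vehicle. The 4 h libraries lay far above all others, the Dps 24 h libraries overlapped vehicle, and the MnDps 24 h libraries lay just above vehicle. At 4 h the gene was 12.8-fold higher after MnDps (log2 3.67 ± 0.19, adjusted p = 6.8e-09 in edgeR) and 10.9-fold higher after Dps (3.45 ± 0.18, adjusted p = 1.2e-08 in edgeR). At 24 h the log2 values were 0.64 ± 0.20 after MnDps (adjusted p = 0.049) and 0.12 ± 0.18 after Dps (adjusted p = 0.68) in edgeR. The value after Dps changed sign without vehicle replicate 3 (-0.0797), and the rise after MnDps was called in 4 of the 14 fits that each left out 1 library, with values of 0.44 to 0.76 over the 14.

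Tap2, the other transporter subunit, had 49.3 and 41.4 CPM at 24 h after MnDps, 29.1, 39.3 and 31.8 CPM at 24 h after Dps, 202, 183 and 265 CPM at 4 h after MnDps, 154, 190 and 155 CPM at 4 h after Dps, against 30.3, 34.2 and 23.9 CPM after vehicle. Its pattern was that of Tap1, with the MnDps 24 h libraries above vehicle and the Dps 24 h libraries overlapping it. Log2 fold changes were 0.63 ± 0.18 at 24 h after MnDps (adjusted p = 0.039), 0.19 ± 0.17 at 24 h after Dps (adjusted p = 0.44), 2.89 ± 0.17 at 4 h after MnDps (adjusted p = 2.8e-08) and 2.51 ± 0.17 at 4 h after Dps (adjusted p = 1.2e-07), all in edgeR. The rise at 24 h after MnDps was called in 6 of 14 fits that left out 1 library.

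Tapbp encodes tapasin, which bridges the transporter and the class I molecule during loading. It had 191 and 170 CPM at 24 h after MnDps, 133, 158 and 132 CPM at 24 h after Dps, 436, 399 and 539 CPM at 4 h after MnDps, 359, 446 and 354 CPM at 4 h after Dps, against 95.7, 96.7 and 81.8 CPM after vehicle. No group at 24 h overlapped vehicle or the 4 h group of the same protein, and MnDps 24 h lay above Dps 24 h. The rises were 0.98 ± 0.13, 0.63 ± 0.12, 2.33 ± 0.13 and 2.08 ± 0.12 on the log2 scale for MnDps 24 h, Dps 24 h, MnDps 4 h and Dps 4 h, with adjusted p-values of 0.00088, 0.0044, 1.2e-09 and 4.6e-09 in edgeR. These 4 calls held in every fit that left out 1 of the 14 libraries.

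The 3 immunoproteasome genes rose at 4 h after both proteins. At that time they were also called higher after MnDps than after Dps, as were 20.8% of all genes, and those 3 calls were lost without MnDps 4 h replicate 3, with the length and GC correction and with a term for libraries of more than 30000000 counts. Psmb8 encodes the beta5i subunit, the inducible counterpart of Psmb5, and had 53.1 and 41.8 CPM at 24 h after MnDps, 26.6, 39.5 and 25.1 CPM at 24 h after Dps, 170, 167 and 257 CPM at 4 h after MnDps, 110, 139 and 99.5 CPM at 4 h after Dps, against 17.2, 14.2 and 11.1 CPM after vehicle. None of the 5 groups overlapped another. Psmb8 was 14.2-fold higher at 4 h after MnDps (log2 3.83 ± 0.26, adjusted p = 6.7e-07) and 8.35-fold higher at 4 h after Dps (3.06 ± 0.25, adjusted p = 4.7e-06) than after vehicle in edgeR. At 24 h it remained 3.39-fold higher after MnDps (1.76 ± 0.27, adjusted p = 0.0029) and 2.18-fold higher after Dps (1.13 ± 0.25, adjusted p = 0.011) in edgeR. The rise at 24 h after Dps did not pass without vehicle replicate 3 (0.96, adjusted p = 0.063 in edgeR).

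Psmb9 encodes beta1i, the counterpart of Psmb6, and was the least abundant of the 3. It had 13.1 and 9.17 CPM at 24 h after MnDps, 7.63, 9.26 and 7.79 CPM at 24 h after Dps, 67.1, 61.0 and 94.6 CPM at 4 h after MnDps, 48.0, 57.9 and 44.7 CPM at 4 h after Dps, against 6.86, 7.05 and 3.79 CPM after vehicle. The 24 h groups overlapped each other, lay just above vehicle and lay well below the 4 h groups. Log2 fold changes were 0.96 ± 0.28, 0.54 ± 0.26, 3.71 ± 0.24 and 3.15 ± 0.24 for MnDps 24 h, Dps 24 h, MnDps 4 h and Dps 4 h, with adjusted p-values of 0.042, 0.16, 2.2e-07 and 1.0e-06 in edgeR. The rise at 24 h after MnDps was called in 4 of 14 fits that left out 1 library, with values of 0.66 to 1.21 over the 14.

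Psmb10 encodes beta2i, the counterpart of Psmb7. It had 35.2 and 30.6 CPM at 24 h after MnDps, 23.5, 31.7 and 24.3 CPM at 24 h after Dps, 163, 149 and 253 CPM at 4 h after MnDps, 95.4, 126 and 98.4 CPM at 4 h after Dps, against 14.4, 20.6 and 11.6 CPM after vehicle. All treated libraries lay above vehicle, and the 24 h groups overlapped each other. Log2 fold changes were 1.10 ± 0.27, 0.79 ± 0.25, 3.62 ± 0.26 and 2.80 ± 0.25 in the same order of groups, with adjusted p-values of 0.025, 0.046, 1.2e-06 and 1.0e-05 in edgeR. The call at 24 h after Dps was lost in 10 of 14 fits that left out 1 library, with values between 0.60 and 0.86 there. The call at 24 h after MnDps was lost without either MnDps 24 h library (1.20 without replicate 2, 0.995 without replicate 1) and without vehicle replicate 1 (1.05) or 3 (0.91).

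Set against the constitutive subunit that each replaces, the 3 genes moved by similar factors at 4 h and by smaller factors at 24 h. The ratio of Psmb8 to Psmb5 counts was 0.495 and 0.355 at 24 h after MnDps, 0.195, 0.301 and 0.210 at 24 h after Dps, 1.34, 1.21 and 1.69 at 4 h after MnDps, 1.22, 1.52 and 1.10 at 4 h after Dps, against 0.215, 0.132 and 0.125 after vehicle. So more reads came from Psmb8 than from Psmb5 in all 6 libraries at 4 h and fewer in the other 8. By the longest annotated transcript Psmb8 is the longer, at 1907 nucleotides against 899. Scaled by transcript length and then to a common total (TPM), Psmb8 averaged 207.5 against 310.9 for Psmb5 at 4 h after MnDps. At 4 h after Dps Psmb8 averaged 148.9 against 246.7 TPM for Psmb5. Psmb5 thus stayed higher per length of the longest transcript. Which transcripts were expressed was not tested, and a shorter Psmb8 transcript would give it a higher TPM. The geometric mean of the ratio was 9.20-fold that of vehicle at 4 h after MnDps and 8.33-fold at 4 h after Dps. For Psmb9 to Psmb6 the factors were 9.22 after MnDps and 10.2 after Dps, and for Psmb10 to Psmb7 they were 8.95 and 7.70. In each of these 6 comparisons no library overlapped vehicle, and the 2-sided exact permutation p was 0.1, the smallest that 3 against 3 libraries allow. At 24 h after MnDps the factors were 2.76, 1.49 and 2.02 for Psmb8, Psmb9 and Psmb10 over their counterparts, with exact permutation p-values of 0.2, 0.4 and 0.2, where 0.2 is the smallest possible. At 24 h after Dps they were 1.52, 1.07 and 1.37, with exact permutation p-values of 0.3, 0.8 and 0.2, where 0.1 is the smallest possible, and the Psmb9 factor lay below 1 without vehicle replicate 3 (log2 -0.15). At 4 h the counterparts themselves moved less. At 4 h after MnDps Psmb5, Psmb6 and Psmb7 rose by 0.60 ± 0.10, 0.48 ± 0.10 and 0.44 ± 0.08 on the log2 scale (adjusted p = 0.00022, 0.0012 and 0.00065 in edgeR). None of the 3 was called at 4 h after Dps, with values of -0.02, -0.22 and -0.14. At 24 h Psmb5, Psmb6 and Psmb7 averaged 112, 172 and 152 CPM after MnDps and 129, 180 and 179 CPM after Dps. After vehicle they averaged 92.0, 133 and 141 CPM, so the denominators of the 24 h ratios were higher as well.

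**Figure D3:**
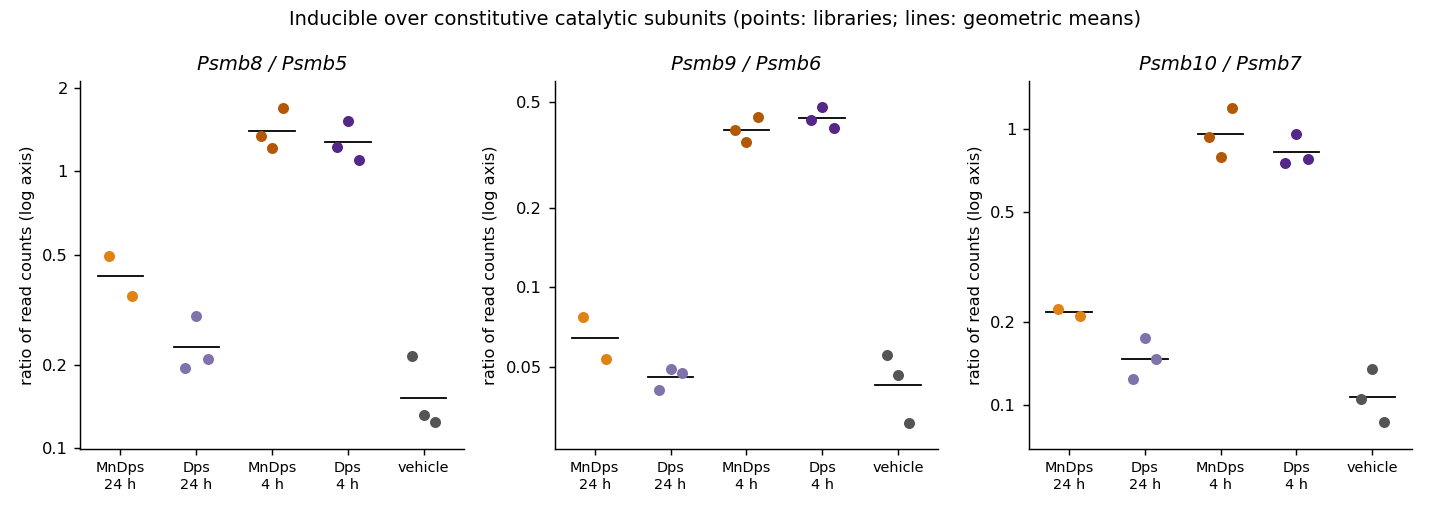
Ratio of read counts (vertical, log axes) of each immunoproteasome gene to its constitutive counterpart in 14 libraries by group (horizontal); points are libraries and lines are geometric means. The 6 libraries at 4 h stand apart from the other 8 in all 3 panels, and at 24 h the MnDps libraries lie above vehicle for Psmb8 and Psmb10.

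Nlrc5 encodes the transactivator that binds class I promoters with the RFX complex and drives H2, B2m and Tap1 genes. It had 11.1 and 8.40 CPM at 24 h after MnDps, 5.66, 6.46 and 6.74 CPM at 24 h after Dps, 68.0, 58.7 and 65.2 CPM at 4 h after MnDps, 98.0, 109 and 83.8 CPM at 4 h after Dps, against 8.84, 12.2 and 6.57 CPM after vehicle. It was the only one of the 10 genes with every Dps library at 4 h above every MnDps library at 4 h, and both 24 h groups overlapped vehicle. Its rise at 4 h was 7.13-fold after MnDps (log2 2.83 ± 0.18, adjusted p = 2.6e-08) and 10.8-fold after Dps (3.44 ± 0.18, adjusted p = 3.5e-09) in edgeR. At 24 h the log2 values were 0.11 ± 0.21 after MnDps (adjusted p = 0.77) and -0.51 ± 0.20 after Dps (adjusted p = 0.081) in edgeR. The value after Dps passed without vehicle replicate 3 (-0.74, adjusted p = 0.027), and the value after MnDps turned negative without MnDps 24 h replicate 1 (-0.10) or vehicle replicate 3 (-0.12), in edgeR.

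Per length of the longest transcript, in TPM (counts scaled by transcript length and then to a common total), the vehicle kidneys held a wide range of the 10 messages. B2m stood at 846 ± 422 TPM (SD, n = 3), H2-K1 at 360 ± 163, H2-D1 at 119 ± 28.9, Tapbp at 73.5 ± 5.45, Tap2 at 19.9 ± 3.02, Tap1 at 10.2 ± 2.17, Psmb9 at 4.75 ± 1.4 and Nlrc5 at 2.81 ± 0.78 TPM. Psmb10 at 27.5 and Psmb8 at 17.3 TPM lay between Tapbp and Tap1. At 4 h the order of the leading genes changed: Tapbp averaged 317 ± 32.7 TPM after MnDps and 326 ± 40.3 TPM after Dps (n = 3 each), level with H2-D1 at 303 ± 71.1 and 286 ± 34.1 TPM. B2m remained highest in each of the 5 groups and Nlrc5 lowest.

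From 4 h to 24 h the 10 genes split. At 24 h against 4 h, 7 of 10 genes had fallen after MnDps, against 11.7% of all genes, with a median log2 fold change of -2.16 for the 10 and -0.01 over all genes. After Dps 7 of 10 had also fallen and none had risen, against 22.6% and 22% of all genes, with medians of -1.97 and -0.005. H2-K1, H2-D1 and B2m were not called after either protein, and the other 7 genes were called after both. The falls were largest for Tap1 (-3.03 ± 0.21 after MnDps, -3.33 ± 0.18 after Dps), Nlrc5 (-2.73 ± 0.21, -3.95 ± 0.19) and Psmb9 (-2.75 ± 0.27, -2.61 ± 0.23). Tap2 gave -2.26 ± 0.19 after MnDps and -2.32 ± 0.17 after Dps, Psmb10 gave -2.52 ± 0.28 and -2.01 ± 0.24, and Psmb8 gave -2.07 ± 0.27 and -1.94 ± 0.24. Tapbp had the smallest fall of the 7, at -1.35 ± 0.14 after MnDps and -1.46 ± 0.12 after Dps, with 95% confidence intervals of -1.64 to -1.05 and -1.72 to -1.20. The intervals of the 3 surface molecule genes lay apart from those of Tapbp: they were -0.99 to 0.42 after MnDps and -1.06 to 0.19 after Dps for H2-K1, -0.79 to 0.23 and -0.78 to 0.13 for H2-D1, and -0.92 to 0.46 and -1.0 to 0.22 for B2m. The difference between genes was not tested, and these intervals include declines as well as 0. In a fit of only the groups compared, the declines of H2-K1 (-0.43, adjusted p = 0.032) and B2m (-0.39, adjusted p = 0.012) after Dps passed in edgeR, and that of B2m also passed without vehicle replicate 1 (-0.39, adjusted p = 0.027).

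**Figure D4:**
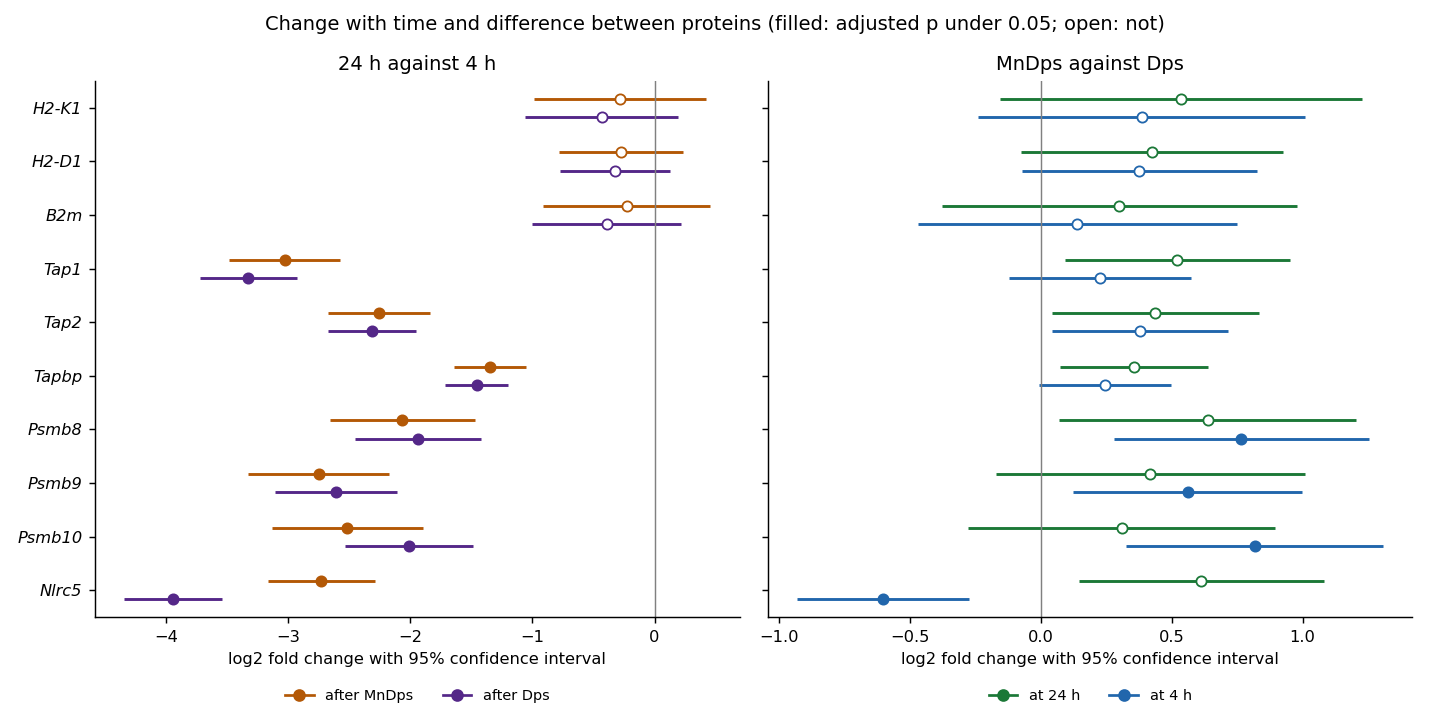
Log2 fold change (horizontal axis, with 95% confidence intervals) of the 10 genes for 24 h against 4 h and for MnDps against Dps, filled where the adjusted p was under 0.05. On the left the intervals of H2-K1, H2-D1 and B2m include 0 and the other 7 genes lie at -1.35 or lower; on the right Psmb8, Psmb9 and Psmb10 are higher and Nlrc5 is lower after MnDps at 4 h.

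Between the proteins at 24 h, 0 of 10 genes passed in edgeR, DESeq2 or limma voom, where 0.148% of all genes were higher and 0.666% lower after MnDps in edgeR. At an unadjusted p under 0.05 in edgeR there were 5 (Tap1, Tap2, Tapbp, Psmb8 and Nlrc5), all higher after MnDps. Of the 14854 genes tested, 2418 had such a p in either direction. A fit of only the 2 groups called 2 genes in edgeR, Tap1 (0.52, adjusted p = 0.019) and Tapbp (0.36, adjusted p = 0.040). The share of all genes called in that fit is not given here. All 10 log2 fold changes were positive, from 0.30 for B2m to 0.64 for Psmb8, with a median of 0.43 against 0.002 over all genes. In 7 of the 10 genes both MnDps libraries lay above all 3 Dps libraries, as in 18.6% of all genes. The 10 genes are not independent observations: MnDps 24 h replicate 1 lay above replicate 2 in all 10. The 95% confidence interval ran from 0.07 to 0.64 for Tapbp and from -0.38 to 0.98 for B2m.

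At 4 h, 3 of 10 genes were higher after MnDps than after Dps and 1 was lower, against 20.8% and 20.7% of all genes, shares close to those of the 10 genes as a group. The higher genes were Psmb8 (0.77 ± 0.22, adjusted p = 0.016), Psmb9 (0.56 ± 0.20, adjusted p = 0.041) and Psmb10 (0.82 ± 0.22, adjusted p = 0.012), and the lower was Nlrc5 (-0.60 ± 0.15, adjusted p = 0.0060), all in edgeR. No library of one protein overlapped the other in these 4 genes. For the remaining 6 the log2 fold changes were 0.38 ± 0.28 for H2-K1, 0.38 ± 0.21 for H2-D1, 0.14 ± 0.28 for B2m, 0.23 ± 0.16 for Tap1, 0.38 ± 0.16 for Tap2 and 0.25 ± 0.12 for Tapbp, with adjusted p-values of 0.31, 0.17, 0.73, 0.29, 0.067 and 0.11 in edgeR. Without MnDps 4 h replicate 3 the calls of Psmb8 (0.51), Psmb9 (0.32) and Psmb10 (0.52) were lost and that of Nlrc5 stayed (-0.64, adjusted p = 0.021 in edgeR). Psmb8 and Psmb9 were also not called without Dps 4 h replicate 1 (0.72 and 0.52) or replicate 3 (0.66 and 0.48), nor Psmb10 without Dps 4 h replicate 1 (0.73). Psmb9 was called in 7 of 14 fits that left out 1 library. Tap2 passed without MnDps 4 h replicate 2 (0.48), Dps 4 h replicate 2 (0.48) or vehicle replicate 3 (0.38), and Tapbp without MnDps 4 h replicate 2 (0.33) or Dps 4 h replicate 2 (0.36).

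Transcript length moved with this contrast and, less strongly, with the others. Over all genes tested with a known length, the log2 fold change between MnDps and Dps at 4 h fell with the length of the longest transcript, at a Spearman correlation of -0.63 across genes, which are not independent replicates. Nlrc5 has the longest transcript of the 10 genes, at 7578 nucleotides, and B2m the shortest, at 860. With each library's trend on length and GC content removed, none of the 4 calls passed: the log2 values became -0.21 for Nlrc5 (adjusted p = 0.46), 0.50 for Psmb8 (0.098), 0.49 for Psmb9 (0.095) and 0.41 for Psmb10 (0.10), in edgeR. The part of length in these differences was not tested beyond this correction. Against vehicle the correlation with length was -0.341 at 24 h after MnDps and -0.509 at 24 h after Dps. At 4 h it was -0.471 after MnDps and 0.166 after Dps against vehicle. For 24 h against 4 h it was 0.295 after MnDps and -0.433 after Dps, and for MnDps against Dps at 24 h 0.207. Vehicle libraries also differed among themselves in this trend. Their log2 deviations from the vehicle mean correlated with length at 0.0337, -0.323 and 0.347 for replicates 1, 2 and 3.

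**Figure D5:**
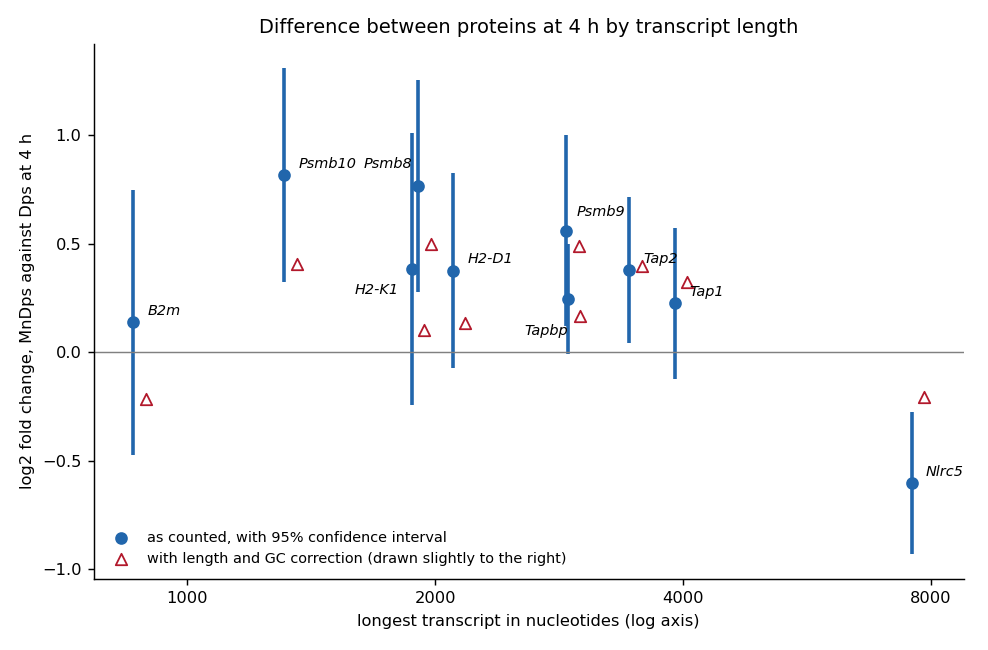
Log2 fold change of MnDps against Dps at 4 h (vertical) by the length of the longest transcript in nucleotides (horizontal, log axis) for the 10 genes, as counted with 95% confidence intervals and after the length and GC correction. Nlrc5, at 7578 nucleotides, lies at -0.60 as counted and at -0.21 with the correction.

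Whether the 2 proteins differed in another way at 24 h than at 4 h was tested as an interaction, and 1 of 10 genes passed, against 13.7% of all genes in the same direction and 15.7% in the other. This was Nlrc5. MnDps against Dps gave 0.61 ± 0.22 at 24 h, which was not called (adjusted p = 0.18 in edgeR), and -0.60 ± 0.15 at 4 h. The difference was 1.22 ± 0.27 (adjusted p = 0.0039 in edgeR). With the length and GC correction it was 0.65 (adjusted p = 0.21 in edgeR), and the interaction over all genes had a Spearman correlation of 0.59 with length. The other 9 values lay between -0.51 for Psmb10 and 0.30 for Tap1.

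Other genes of the pathway, listed with earlier results of these data known, did not all move with the 10. Their counts stand beside the shares of all genes called higher and lower, which were 22.9% and 22.7% at 4 h after MnDps, 8.33% and 6.27% at 4 h after Dps, 4.93% and 8.39% at 24 h after MnDps, and 9.64% and 10.4% at 24 h after Dps. Of 25 further class I heavy chain genes, 12 passed the filter on low counts, and how reads of their near-identical copies were assigned is not given in the sources used here. Of the 12 tested, 8 rose at 4 h after MnDps (22.9% of all genes) and 7 at 4 h after Dps (8.33%), led after both by H2-Q4 (2.72 and 2.47), H2-T24 (2.13 and 2.24) and H2-M3 (1.71 and 1.68), a chain that presents formylated peptides. At 24 h 5 of 12 rose after MnDps (4.93% of all genes) and 3 after Dps (9.64%), and none fell in any of these 4 comparisons. The list's median log2 fold change was 1.05 at 4 h after MnDps and 1.04 at 4 h after Dps.

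Of 13 chaperones and trimming peptidases, 3 rose and 2 fell at 4 h after MnDps, and 2 rose and none fell at 4 h after Dps. The share that rose after MnDps was near the 22.9% of all genes, so the count shows nothing particular to this list. The risers after both were Tapbpl (2.25 and 2.12), which encodes the tapasin-related peptide editor TAPBPR, and Erap1 (0.67 and 1.03), the aminopeptidase that trims peptides in the endoplasmic reticulum. At 24 h none rose and 1 fell after MnDps (Canx, -0.33), and 2 rose and 2 fell after Dps, with Calr at 0.42. Calr and Canx encode lectin chaperones of heavy chain folding.

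Of 8 proteasome genes outside the 10, 6 rose and 1 fell at 4 h after MnDps, and 2 rose and none fell at 4 h after Dps, against 22.9% and 22.7% of all genes after MnDps and 8.33% and 6.27% after Dps. Psme2 (2.15 and 1.37) and Psme1 (1.72 and 1.13), the subunits of the interferon-inducible PA28 activator, led after both. Pomp, the assembly chaperone of the 20S core, rose by 0.84 at 4 h after MnDps. At 24 h 3 rose and none fell after MnDps, and 6 rose and 2 fell after Dps.

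Of 18 tested regulators of class I genes, 11 rose and 2 fell at 4 h after MnDps (22.9% and 22.7% of all genes), and 10 rose and 1 fell at 4 h after Dps (8.33% and 6.27%). The interferon regulatory factor Irf7 had the largest rise after both (4.94 and 4.75). Irf1 rose by 3.19 after MnDps and Stat2 by 2.91 after Dps. At 24 h 2 rose and 1 fell after MnDps, and 2 rose and 3 fell after Dps (4.93% and 8.39%, then 9.64% and 10.4%, of all genes), which shows nothing particular to this list. Irf7 was still higher by 3.85 after MnDps and 3.11 after Dps, with 222 and 133 CPM on average against 15.5 CPM after vehicle.

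Markers of the cell types that carry class I molecules also moved between groups, and their part in the levels of the 10 genes was not tested. Proximal tubule markers were abundant in every library, with a summed level of 8760 to 12130 CPM over 6 genes. They summed to 8760 to 9292 CPM at 4 h after MnDps, against 11410 to 12130 CPM after vehicle, with 5 of 6 lower, and 1 of 6 was lower at 4 h after Dps and 2 of 6 at 24 h after Dps. Of all genes, 22.7% were called lower at 4 h after MnDps, 6.27% at 4 h after Dps and 10.4% at 24 h after Dps. The 7 macrophage markers summed to 190 to 196 CPM at 24 h after MnDps and 191 to 218 CPM at 24 h after Dps, against 123 to 167 CPM after vehicle, with 4 and 5 of 7 called higher, as were 4.93% and 9.64% of all genes. At 4 h they summed to 115 to 126.5 CPM after MnDps and 119.5 to 129.5 CPM after Dps, with 1 higher and 2 lower after MnDps and none higher and 1 lower after Dps. The 4 measured neutrophil markers summed to 9.81 to 17.2 CPM at 4 h after MnDps and 4.88 to 6.96 CPM at 4 h after Dps, against 0.516 to 1.21 CPM after vehicle. All 3 of them that were tested rose after both proteins at 4 h, as did 22.9% of all genes after MnDps and 8.33% after Dps, and S100a8 had no count in 2 vehicle libraries. The 6 endothelial markers summed to 187 to 233 CPM at 4 h after MnDps and 179 to 240.5 CPM at 4 h after Dps, against 335 to 388 CPM after vehicle, with 5 of 6 lower after each. The 5 dendritic cell markers summed to 4.68 to 6.72 CPM at 4 h after MnDps and 6.40 to 8.38 CPM at 4 h after Dps, against 9.0 to 12.0 CPM after vehicle, with 3 of 5 lower after each. Cd209a had no count in 2 libraries at 4 h after MnDps. The leukocyte gene Ptprc had 5.47 to 8.20 CPM at 4 h after MnDps and was lower there, against 9.12 to 15.4 CPM after vehicle. The 7 T and NK cell markers summed to 2.48 to 7.47 CPM and the 4 B cell markers to 1.25 to 2.78 CPM across all libraries.

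The gene closest in pattern to the mean of the 10, by Pearson correlation of log2 CPM over the 14 libraries, was H2-Q4 (r = 0.994), followed by AW112010, Xaf1, Ube2l6 and Gbp3 (0.989 for the last). The libraries share their groups, so such values mostly follow the large difference between 4 h and the rest. Tap1 and Tap2 were closest to Igtp (0.997 and 0.995), Nlrc5 to Irgm2 (0.996), Tapbp to Il18bp (0.991), Psmb8 to Plac8 (0.992), Psmb9 to Timp1 (0.995) and Psmb10 to Ogfr (0.994). H2-K1 and B2m had lower best values, with Crlf2 for H2-K1 (0.946) and H2afy2 for B2m (0.93).

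By position (GRCm38, GENCODE), 7 of the 10 genes lie on chromosome 17 in the major histocompatibility complex: Tapbp at 33915899-33929292, H2-K1 at 33996017-34000347, Psmb9 at 34181987-34187764, Tap1 at 34187553-34197225, Psmb8 at 34197721-34201454, Tap2 at 34203527-34216321 and H2-D1 at 35262730-35267499. B2m lies on chromosome 2 at 122147686-122153083, Nlrc5 on chromosome 8 at 94434356-94527272 and Psmb10 on chromosome 8 at 105935735-105938444. Tap1 and Psmb9 are transcribed in opposite directions, and in the GENCODE annotation their exons overlap by 212 bases on opposite strands. RefSeq, from which the sequence between them was taken, places their starts 226 bases apart. Reads of that stretch could be told apart only if counting used strand, and the strand setting is not given in the sources used here. Tap2 and Psmb8 exons overlap Gm20496 on the opposite strand, and Tap2 exons also overlap Gm15821 there. Tapbp exons overlap Gm19412 by 904 bases on the opposite strand and Zbtb22 by 149 bases on the same strand. Of the windows of 75 bases in the longest Tapbp transcript, 17.5% also occurred in transcripts of other genes on either strand. That was the largest share of the 10 genes. The neighbours Tap1 and Psmb9 rose by similar amounts at 4 h after MnDps (3.67 and 3.71), and Tap1 by 3.45 and Psmb9 by 3.15 after Dps.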

How the data were processed

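Kidney RNA was sequenced in paired reads of 75 bases from a stranded mRNA library kit, per the labels' protocols. The submitters' processing notes name STAR, featureCounts and the build mm10. Their versions, the annotation and the strand setting are not given in the labels or headers. The deposited file holds raw counts per gene, and totals ran from 15097093 to 42074942 per library, which sets the counting precision. Pairs of replicates differed by more than counting error (chi-square per degree of freedom 7.74 to 29.3). Replicates are numbered in accession order.

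Counts were filtered with filterByExpr, scaled by TMM and tested with edgeR 4.0.16 (R 4.3.3, limma 3.58.1) in 1 robust quasi-likelihood fit of 5 group means over 14 libraries with 9 residual degrees of freedom. For each of 9 contrasts, p-values were adjusted (Benjamini-Hochberg) over 14854 genes at a threshold of 0.05; the SE is the log2 fold change divided by the square root of F. The biological coefficient of variation was 10.7%. Ratios of counts were compared by 2-sided exact permutation. Promoter windows came from RefSeq, and lengths and GC content (known for 14328 genes, 96.5%) from GENCODE vM21 transcripts.

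The members and gene lists were chosen with earlier results of these data known. All 10 members are named; of other lists, no more than 3 called genes per direction, the largest first, provided they averaged 1 CPM or more. Alternatives were RLE scaling, no filter, 1 CPM in 3 libraries, DESeq2 1.42.0, limma voom with sample weights, only the groups compared, a length and GC correction, a term for libraries of more than 30000000 counts, 0.5 added to ratio counts, and leaving out each library. On simulated data for 14636 genes (Dps at 4 h against vehicle), 76% of 1.5-fold and 96% of 2-fold changes were recovered with 13 false calls. Some genes that this rule and the likeness ranking name are not reported here.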

Additional observations from a re-analysis of the deposited data

Results flagged for a closer look

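Nlrc5 was the one gene of the 10 in which the difference between the proteins changed with time by a test of that change. On the log2 scale MnDps against Dps gave 0.61 ± 0.22 at 24 h, which was not called (adjusted p = 0.18 in edgeR), and -0.60 ± 0.15 at 4 h. The 24 h value minus the 4 h value was 1.22 ± 0.27 (95% confidence interval 0.65 to 1.79, adjusted p = 0.0039 in edgeR's quasi-likelihood test). It stayed called in all 14 fits that left out 1 library (1.02 to 1.42) and was not called with the length and GC correction (0.65, adjusted p = 0.21). Of all genes tested, 13.7% were called in this direction and 15.7% in the other. Over all genes the interaction had a Spearman correlation of 0.59 with transcript length.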

How the results depend on the processing

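The 10 calls at 4 h after MnDps and the 7 falls at 24 h against 4 h held in every alternative for each protein. At 4 h after Dps the calls of H2-K1 and B2m were lost in a fit of only the groups compared and without some libraries, with 8 to 10 genes called. The number of genes called at 24 h after MnDps, 9, was 5 with no count filter, 5 with the length and GC correction, 4 with a term for libraries of more than 30000000 counts, 5 in a fit of only the groups compared, and 2 to 9 with 1 library left out. At 24 h after Dps, 4, it was 2 with the length and GC correction, 7 in limma voom with sample weights, and 2 to 5 with 1 library left out. For MnDps against Dps at 4 h, 4, it was 0 with the length and GC correction, 1 with the term for large libraries, and 1 to 6 with 1 library left out. For MnDps against Dps at 24 h, 0, it was 2 in a fit of only the groups compared. For the interaction, 1, it was 0 with the length and GC correction.

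Signs turned in values that were not called. With the length and GC correction B2m was -0.21 for MnDps against Dps at 4 h and 0.12 for 24 h against 4 h after MnDps, and the interaction was -0.0485 for Tap2 and 0.135 for Psmb8. With the term for large libraries B2m was -0.0647 for MnDps against Dps at 4 h. With 1 library left out, Tap1 at 24 h after Dps ran from -0.0797 to 0.24, Nlrc5 at 24 h after MnDps from -0.12 to 0.34 and B2m for MnDps against Dps at 4 h from -0.0602 to 0.22. The interaction ran from -0.0830 to 0.33 for H2-D1, -0.0678 to 0.23 for Tap2, -0.31 to 0.11 for Psmb8 and -0.40 to 0.11 for Psmb9, and the log2 ratio of Psmb9 to Psmb6 at 24 h after Dps from -0.15 to 0.27. The causes were not tested.

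No paired analysis was possible because the labels give no replicate numbers. The 2 libraries at 24 h after MnDps limit every comparison that uses them.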
